A study of Homo sapiens with 4 samples.

Results

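The genes described here encode fibronectin (FN1) and 4 proteins that attach to or act within the matrix around it: TGFBI (TGF-beta-induced protein), THBS1 (thrombospondin 1), TNC (tenascin C) and SPARC. They were chosen by name, and are 5 of the 19577 genes listed in at least 1 plate, with spike-ins left out. All 5 were listed. FN1, TNC and SPARC, or 3 of the 5, are also on the list of mesenchymal genes that the study used for its epithelial-to-mesenchymal transition (EMT) score, whereas TGFBI and THBS1 are not. CDH1 (E-cadherin, an adhesion protein of epithelial cell contacts) and VIM (vimentin, an intermediate filament protein of mesenchymal cells) are the markers they were set against.

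Fibronectin is secreted as a dimer and assembled by cells into fibrils through integrins, chiefly α5β1, and its synthesis is a classic trait of cells in EMT. Matricellular proteins differ from structural matrix in that they mainly modulate how cells attach, migrate and receive growth factors: TGFBI binds integrins and collagens and is named for its induction by TGF-beta, thrombospondin 1 binds CD47 and CD36 and can activate latent TGF-beta, and tenascin C and SPARC reduce firm adhesion to the matrix. In the mammary gland such proteins are made largely by stromal and basal cells.

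Cells of MCF10A_H2B_GFP, an untransformed human mammary epithelial line that carries a fluorescent histone, had grown for 6 days from 10000 seeded cells as a circular patch on glass coated with 0.1 mg/ml fibronectin, in medium with serum, insulin, hydrocortisone, cholera toxin and 20 ng/ml EGF. In the low-resolution experiment the patch was phototagged in concentric rings 1000 to 1500 μm wide, and in the high-resolution experiment the 2 outer layers were each 250 μm wide. Sorted cells went through SORT-seq, a plate method in which each transcript is counted once through its unique molecular identifier (UMI), with 2 plates of 384 wells per experiment. The plate was the replicate, and values by plate are given in the order low-resolution replicates 1 and 2, then high-resolution replicates 1 and 2. The region from which each well was sorted was not analysed here, so all values are for whole plates, and a high-resolution plate differs from a low-resolution plate in its patch, its tagging scheme and the regions sorted, which cannot be told apart. The coated fibronectin is protein and adds nothing to the count of FN1 transcripts.

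After the study's filter, 291 and 271 cells of low-resolution replicates 1 and 2 and 291 and 293 cells of high-resolution replicates 1 and 2 remained, or 1146 cells of 1536 wells. The medians by plate were 30520 to 41248 transcripts per cell, with spike-ins counted in. Genes that mark mammary basal epithelium were abundant (7 of 8 in at least 20% of cells in every plate, although the defining factor TP63 had only 40 UMIs in all), and 3 of 7 luminal markers passed the same limit. No fibroblast marker (0 of 9, with LUM not listed) did so, with a summed level of 0.104 to 0.239 per 10000 transcripts over the plates, no leukocyte marker (0 of 4) did, and PECAM1 was the only endothelial marker of 4 that did. The 222 wells with under 2000 features, which hold little or no cell RNA, together had 186 UMIs of FN1, 189 of TGFBI, 119 of THBS1, 1 of TNC and 0 of SPARC, which is under 1 UMI per well for each gene over the 4 plates together, although TGFBI had 88 UMIs in the 58 such wells of high-resolution replicate 2. No cell type that should lack these genes was on the plates, and that count serves as the background for RNA free of cells.

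The genes lie on 4 chromosomes, in GRCh38: FN1 at chr2:215360865-215436068, TGFBI at chr5:136028988-136063818, THBS1 at chr15:39581079-39599466, TNC at chr9:115019575-115118157 and SPARC at chr5:151661096-151686915. Promoters are shown for the 3 genes that were abundant and varied together across cells, as the 250 bases before the annotated start of each gene (RefSeq, GRCh38.p14), written 5′ to 3′ on the strand of the gene. FN1 and its window at chr2:215436069-215436318 are on the minus strand, and TGFBI with chr5:136028738-136028987 and THBS1 with chr15:39580829-39581078 are on the plus strand. Capitals mark matches to the motifs searched.
FN1: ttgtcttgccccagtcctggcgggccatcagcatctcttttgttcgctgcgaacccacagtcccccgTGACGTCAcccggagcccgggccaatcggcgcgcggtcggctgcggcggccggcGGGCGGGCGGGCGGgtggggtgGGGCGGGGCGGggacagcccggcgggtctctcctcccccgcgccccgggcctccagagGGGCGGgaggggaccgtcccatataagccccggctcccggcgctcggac
TGFBI: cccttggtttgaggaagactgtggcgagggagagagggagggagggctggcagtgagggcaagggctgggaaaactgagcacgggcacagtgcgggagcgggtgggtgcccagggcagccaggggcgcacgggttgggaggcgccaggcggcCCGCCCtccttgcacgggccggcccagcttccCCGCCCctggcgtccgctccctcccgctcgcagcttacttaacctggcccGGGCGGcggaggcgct
THBS1: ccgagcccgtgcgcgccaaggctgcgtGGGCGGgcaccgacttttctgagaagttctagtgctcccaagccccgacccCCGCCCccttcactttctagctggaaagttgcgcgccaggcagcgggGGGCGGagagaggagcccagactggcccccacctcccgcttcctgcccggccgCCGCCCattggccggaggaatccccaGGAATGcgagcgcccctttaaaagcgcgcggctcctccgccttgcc

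Motifs were searched on both strands as fixed letters: TGACGTCA for the cAMP response element (CRE), TGACTCA for AP-1, GGGCGG for SP1, GGAATG for TEAD and TATAAA for a TATA box. The FN1 window held 1 CRE match, which began 183 bases before the start, and only 1.646% of the 35116 promoters in the table held these letters. It also held 6 SP1 matches, of which those beginning 129, 125 and 121 bases before the start overlapped each other, as did those at 107 and 102. TGFBI had 3 SP1 matches, and THBS1 had 4 together with 1 TEAD match 46 bases before its start. The SP1 letters occurred in 42.64% of all promoters and the TEAD letters in 11.89%. No AP-1 or TATAAA letters were found in the 5 windows, against 4.203% and 10.72% of all promoters. In the windows of the 2 rare genes, TNC had 1 SP1 match and SPARC had 1 TEAD match and no SP1 match. These matches describe letters only.

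The 5 genes fell into 2 classes of abundance. FN1, TGFBI and THBS1 were found in most cells and ranked 161, 156 and 430 by level among the 19577 genes. TNC ranked 9619 and SPARC 13259. Levels are given as transcripts per 10000 transcripts of the plate's cells. Because SORT-seq counts the 3′ end of each transcript once, levels of different genes can be set side by side without correction for length.

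Fibronectin transcripts were at 5.23, 4.22, 7.97 and 7.71 per 10000 in the 4 plates. A UMI of FN1 was found in 73.9% of cells (95% exact binomial interval 68.4 to 78.8), 68.6% (62.7 to 74.1), 91.1% (87.2 to 94.1) and 89.8% (85.7 to 93.0), in the same order. Both measures were higher in both high-resolution plates. Of the cells with FN1, 53 of 215, 36 of 186, 31 of 265 and 37 of 263 held a single UMI. The wells with under 2000 features held 45 UMIs of FN1 in 51 wells, 46 in 63, 43 in 50 and 52 in 58. That background was not subtracted from the shares of any member, and it weighs most where cells hold few UMIs, as in the low-resolution plates. When every cell was thinned to 10000 UMIs, which left out 16 shallower cells (4, 3, 7 and 2 by plate), the shares were 56.4%, 52.6%, 72.2% and 68.7%, and both high-resolution plates remained higher. Intervals cover counting error only, since cells of a plate share their patch and library.

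FN1 was the most unequally distributed of the abundant members. The median cell held only 2, 2, 10 and 12 UMIs, while the highest cell in each plate held 393, 184, 387 and 377. Without thinning, the 10% of cells with the most FN1 carried 55.3% ± 6.17 (SD, n = 4 plates) of its UMIs, so differences in depth between cells are included. At equal depth its variance over its mean (Fano factor) was 16.5 to 38.9 by plate.

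TGFBI was at 3.72, 4.18, 8.66 and 9.35 per 10000. A UMI was present in 90.4%, 87.5%, 99.0% and 98.0% of cells, and at equal depth in 72.1%, 67.5%, 91.5% and 88.7%. It was the most widely found member in all 4 plates. The median cell held 4, 5, 21 and 24 UMIs, and its Fano factor at equal depth, 6.82 to 9.61, was below that of FN1 in every plate.

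Thrombospondin 1 transcripts were at 2.54, 1.87, 2.92 and 3.45 per 10000. THBS1 was present in 81.8%, 75.6%, 92.1% and 94.5% of cells, and at equal depth in 65.9%, 55.6%, 77.8% and 79.0%. The levels of the 2 experiments did not overlap, but the 2 low-resolution plates lay farther apart than low-resolution replicate 1 did from high-resolution replicate 1. By level, TGFBI and FN1 changed places between the experiments, FN1 being above TGFBI in both low-resolution plates, narrowly in replicate 2, and below it in both high-resolution plates, and THBS1 was the lowest of the 3 in every plate.

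Tenascin C was rare. TNC was at 0.0637, 0.0327, 0.0350 and 0.0532 per 10000, in 14.4%, 10.3%, 11.3% and 17.1% of cells, and the 2 experiments overlapped. Of the cells in which it was found, 35 of 42, 24 of 28, 31 of 33 and 37 of 50 held a single UMI, and no cell of any plate held more than 8. At equal depth its share fell to between 2.99% and 5.99%, so most of its cells would not have been seen at that depth. The wells with little cell RNA held 1 UMI of TNC in all.

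SPARC, a collagen-binding glycoprotein, was close to the detection limit. Its UMIs numbered 7, 8, 2 and 5, each in a cell of its own, which gives shares of 2.41% (0.972 to 4.89), 2.95% (1.28 to 5.73), 0.687% (0.0833 to 2.46) and 1.71% (0.556 to 3.94). Both high-resolution plates were below both low-resolution plates, but all 4 intervals overlap and no difference was detectable at this depth. Only FN1, TGFBI and THBS1, or 3 of 5 members, were found in at least 20% of the cells of every plate.

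**Figure D1:**
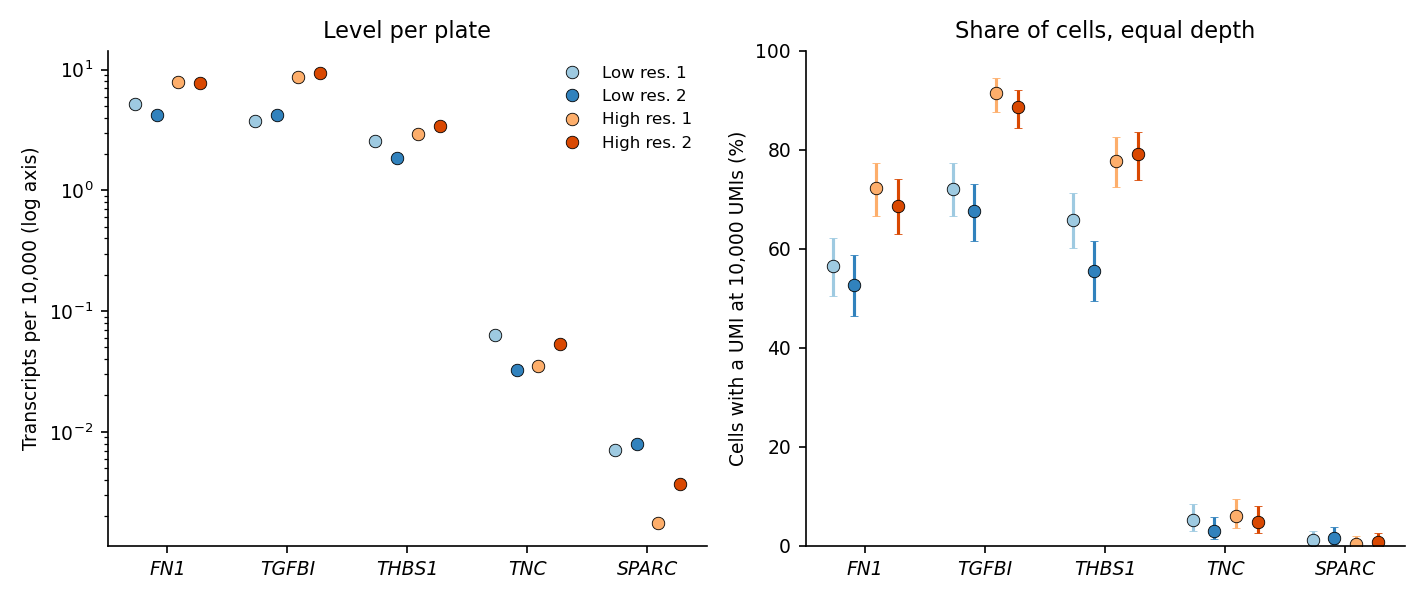
Level of each member in transcripts per 10000 (left, log axis) and share of cells with a UMI after thinning to 10000 UMIs per cell (right, %, with exact 95% binomial intervals), 1 point per plate. FN1, TGFBI and THBS1 lie between 1.87 and 9.35 per 10000 and are higher in both high-resolution plates, while TNC and SPARC lie at or below 0.0637.

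Levels of each gene were correlated across the cells of a plate, after scaling to 10000 transcripts per cell, as Spearman's rho. The cells share a library, a patch and their depth, so rho describes a plate and carries no p, and its SD is over the 4 plates. A gene was said to follow another where rho reached 0.3 in size, with 1 sign, in each of the 4 plates. This was read over 8032 genes that were present in 20% or more of the cells of each plate. TNC and SPARC are not among these genes, most of which are at lower levels than FN1, TGFBI and THBS1. Shares of the tested genes are thus not matched to the members for level. The members were also chosen with earlier results of these data known.

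All 3 abundant members were positively correlated with VIM. For FN1 rho was 0.388, 0.532, 0.484 and 0.524 by plate, with a mean of 0.482 ± 0.0663, and it ranked 19 of 8031 genes by that mean. TGFBI had 0.396, 0.420, 0.462 and 0.479 (mean 0.439 ± 0.0379, rank 37). THBS1 had 0.316, 0.412, 0.375 and 0.479 (mean 0.396 ± 0.0682, rank 64). So 3 of 5 members followed VIM upwards, where 0.984% of the tested genes did, and 0 followed it downwards, where 0.735% did. At equal depth the 3 means were 0.420, 0.361 and 0.361, and each plate stayed above 0.3. With the cell cycle scores partialled out, or with mitochondrial counts left out of the scaling, 2 members followed VIM: THBS1 then had means of 0.372 and 0.381, with 0.280 and 0.29996 in its lowest plate.

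Opposition to CDH1 set the members further apart. FN1 had a mean rho with CDH1 of -0.635 ± 0.0504 (2 from the bottom of 8031 genes), with -0.580, -0.615, -0.698 and -0.648 by plate. TGFBI stood at -0.550, -0.520, -0.439 and -0.346, with a mean of -0.464 ± 0.0916 (40 from the bottom), and was weaker in both high-resolution plates than in both low-resolution plates. THBS1 showed the opposite order, with -0.231, -0.289, -0.361 and -0.382 and a mean of -0.316 ± 0.0691. Thus 2 of 5 members followed CDH1 downwards, against 1.22% of the tested genes, and 0 followed it upwards, against 1.66%. CDH1 itself was sparse, and at equal depth all 3 means shrank, to -0.497, -0.357 and -0.232, with TGFBI at -0.238 in its weakest plate, which left FN1 as the 1 member that met the rule.

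The rare members lay near 0. TNC had a mean rho of 0.104 ± 0.0386 with VIM and -0.114 ± 0.0632 with CDH1, with the same sign in all 4 plates for both. SPARC had 0.0495 ± 0.0593 and -0.0177 ± 0.0600 with mixed signs, and in a gene with 22 UMIs such values are no finding.

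**Figure D2:**
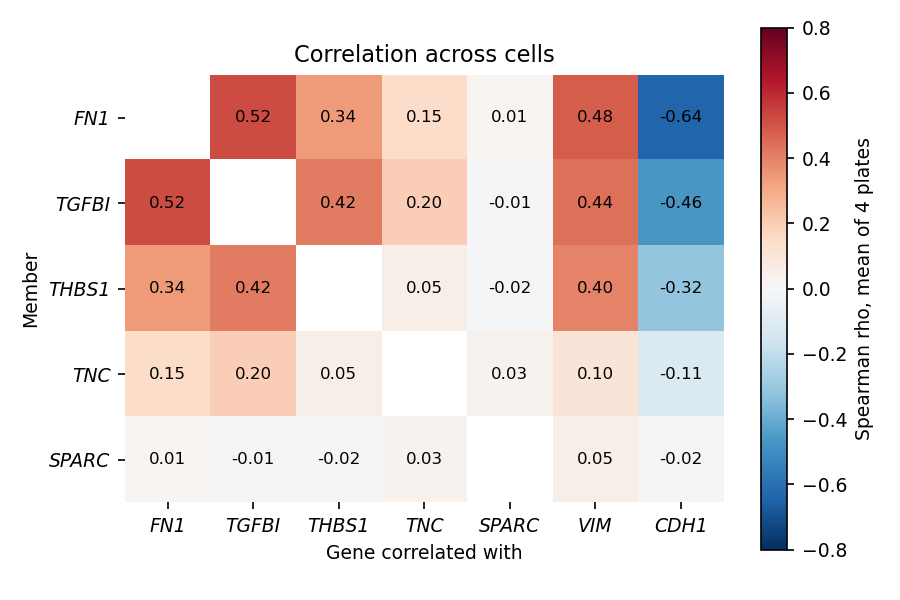
Spearman rho across cells between the members and with VIM and CDH1, as the mean of 4 plates (colour and printed value). FN1, TGFBI and THBS1 form a positive block (0.34 to 0.52) that is positive with VIM and negative with CDH1, and TNC and SPARC are pale.

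Among the members themselves, FN1 and TGFBI were the closest pair, with rho of 0.593, 0.607, 0.500 and 0.399 by plate and a mean of 0.525 ± 0.0962. The pair was weaker in both high-resolution plates. TGFBI and THBS1 followed at 0.417 ± 0.0447, and FN1 and THBS1 at 0.338 ± 0.0653. TNC had 0.199 ± 0.0645 with TGFBI, 0.150 ± 0.0854 with FN1 and 0.0499 ± 0.119 with THBS1, and at equal depth these were 0.0906 (0.0629 to 0.150 by plate), 0.120 and 0.00320. Averaged over all 10 pairs rho was 0.170 ± 0.0304, and 0.132 at equal depth.

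Presence in the same cell was also counted, at equal depth. FN1, TGFBI and THBS1 were found together in 34.8% and 28.4% of low-resolution cells and in 56.7% and 55.3% of high-resolution cells. The share of each gene alone was also higher in both high-resolution plates. For pairs, the share of cells with both genes was close to the product of the 2 single shares. Its ratio to that product was 1.12 ± 0.0790 for FN1 and TGFBI, 1.06 ± 0.0212 for FN1 and THBS1 and 1.04 ± 0.0260 for TGFBI and THBS1. None of the 3 was found in 8.71%, 9.70%, 1.76% and 2.75%. Without thinning, cells with TNC had more TGFBI than cells without it in every plate (5.39 against 3.02, 6.01 against 3.58, 11.1 against 7.86 and 12.0 against 7.71 per 10000), whereas FN1 was lower in TNC cells of high-resolution replicate 1 (8.33 against 10.1). Cells with TNC were deeper in 3 of the 4 plates, the exception being low-resolution replicate 2 (medians of 30085 against 33892 transcripts).

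**Figure D3:**
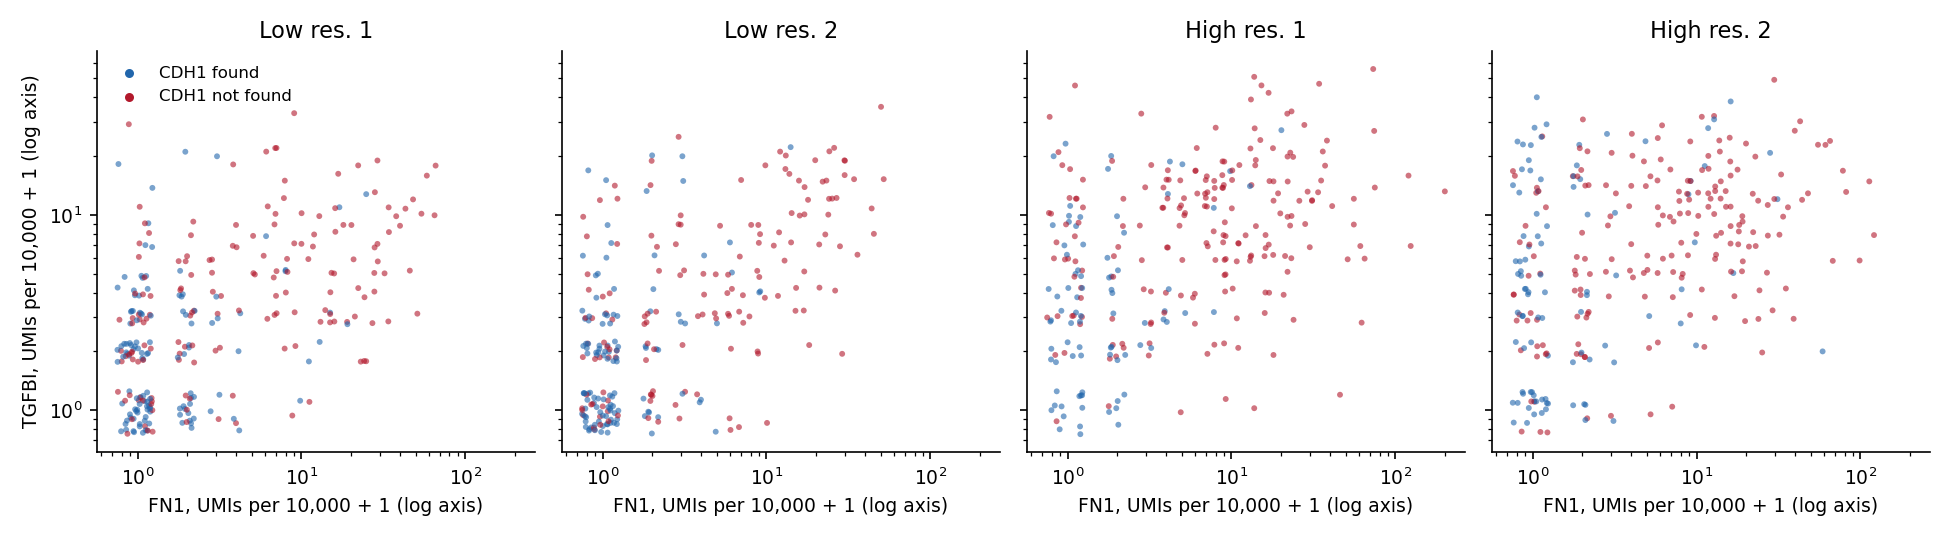
FN1 against TGFBI in single cells thinned to 10000 UMIs, as UMIs plus 1 on log axes with a small jitter, 1 panel per plate, coloured by whether a UMI of CDH1 was found. Cells without CDH1 reach the upper right, and in the high-resolution plates cells with CDH1 and without FN1 extend upwards along the TGFBI axis. Without thinning, rho was 0.500 and 0.399 in the high-resolution plates, against 0.593 and 0.607 in the low-resolution plates. For the thinned counts shown, rho was 0.362 to 0.573 over the plates.

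An EMT score was formed as the mean z-score of the study's mesenchymal genes minus that of its epithelial genes, with the 5 members, CDH1 and VIM left out (98 and 62 genes). FN1 had rho of 0.737, 0.725, 0.772 and 0.761 with this score, a mean of 0.749 ± 0.0216. TGFBI had 0.730, 0.709, 0.621 and 0.565 (mean 0.656 ± 0.0772), weaker in both high-resolution plates. THBS1 had 0.341, 0.436, 0.520 and 0.564 (mean 0.465 ± 0.0986), stronger in both. TNC had a mean of 0.193 ± 0.0488. In size, the rho of FN1 was above that of VIM (0.585 ± 0.101) and of CDH1 (-0.728 ± 0.0329) in 4 of 4 plates, narrowly for CDH1. The genes were not matched for level, with means of 6.28 per 10000 for FN1, 1.09 for VIM and 0.585 for CDH1. Whether that order holds at like levels was not tested. With the score partialled out of the ranks, FN1 and TGFBI fell to 0.0736 ± 0.107, with plates from -0.0571 to 0.192, and FN1 and THBS1 to -0.0218 ± 0.0618. TGFBI and THBS1 kept 0.177 ± 0.0490 and stayed positive in all plates (0.104 to 0.207).

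Along the score the members differed in shape. Cells of each plate were divided by score into 5 equal groups, and mean counts per 10000 are given from lowest to highest score. FN1 was flat over the lowest groups at 0.757 and 0.777 and then rose to 4.80, 11.3 and 18.9. TGFBI rose from the outset, with 1.15, 3.93, 6.24, 8.63 and 9.95, and THBS1 rose least, from 1.16 to 5.08. The first step of TGFBI was larger in both high-resolution plates. By plate it went from 0.671 to 1.18, 0.586 to 0.961, 1.89 to 5.39 and 1.46 to 8.21. CDH1 ran from 1.16 to 0.0437 and VIM from 0.0602 to 3.09.

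The ratio of the highest to the lowest group was 33.3, 32.3, 39.1 and 13.5 for FN1 by plate, 10.7, 15.0, 6.55 and 7.85 for TGFBI and 3.25, 7.36, 3.85 and 4.77 for THBS1. The plates parted in the middle group. There FN1 was at 1.25, 0.569, 9.81 and 7.58 by plate, TGFBI at 2.06, 2.61, 10.6 and 9.71, and CDH1 at 0.889, 0.891, 0.175 and 0.346. Groups were cut within each plate, so the middle group of a high-resolution plate need not hold cells of the same score as that of a low-resolution plate.

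**Figure D4:**
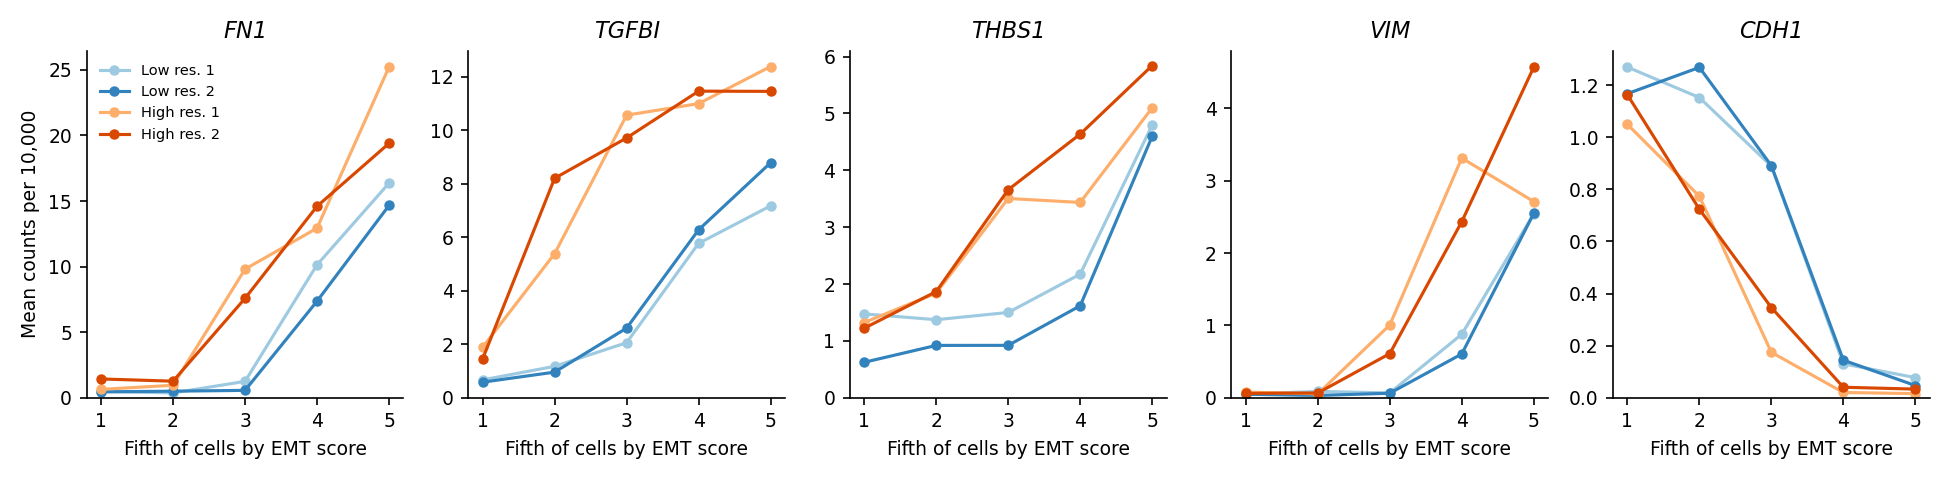
Mean counts per 10000 of FN1, TGFBI, THBS1, VIM and CDH1 in the 5 groups of cells ordered by EMT score (1 lowest, 5 highest), 1 line per plate. FN1 and VIM stay near 0 in the first 2 groups and then climb in the high-resolution plates. In the low-resolution plates they are still low in group 3 (FN1 1.25 and 0.569, VIM 0.0679 and 0.0636) and climb after it. TGFBI climbs from the second group on in the high-resolution plates, and CDH1 falls.

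Other properties of the cells moved with the members too. The share of mitochondrial transcripts had a mean rho of -0.249 ± 0.0642 with FN1, -0.386 ± 0.0514 with TGFBI and -0.376 ± 0.131 with THBS1, and CDH1 had 0.251 ± 0.0489. TGFBI and THBS1 also rose with the G2/M score (0.277 ± 0.0576 and 0.255 ± 0.0760), whereas FN1 had -0.00823 ± 0.0828. With transcripts per cell, FN1 had -0.0947 ± 0.0536 and TGFBI 0.185 ± 0.102. With the cell cycle scores partialled out, the mean rho over the 10 pairs of members was 0.168 and TGFBI with VIM had 0.414, and with mitochondrial counts left out of the scaling these were 0.164 and 0.428.

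Splitting cells by whether CDH1 and VIM were found at equal depth put levels to these relations. Of 1130 cells, 387 had CDH1 only, 40 had both, 411 had neither and 292 had VIM only. A UMI not found at this depth does not show that a cell lacks the transcript. FN1 averaged 1.21 ± 0.761 UMIs per 10000 (SD, n = 4 plates) in cells with CDH1 only, 4.02 ± 1.76 with both, 9.01 ± 2.82 with neither and 14.2 ± 0.629 with VIM only. The last value was nearly the same in every plate, at 14, 13.7, 15.1 and 13.98. TGFBI in cells with VIM only was at 6.82, 9.86, 12.1 and 12.2, and in cells with CDH1 only at 1.74, 1.80, 3.59 and 7.34. THBS1 was at 4.96 ± 0.655 in cells with VIM only and 1.63 ± 0.598 in cells with CDH1 only.

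As ratios at equal depth, FN1 was 7.93-fold higher in cells without CDH1 than in cells with it (4.60 to 11.5 by plate). TGFBI was 2.10-fold higher (1.22 to 2.68) and THBS1 2.03-fold (1.73 to 2.33). Between cells with and without VIM the ratios were alike, at 2.54 (1.94 to 3.80), 2.24 (1.74 to 3.34) and 2.37 (1.78 to 3.19). Every ratio was above 1 in 4 of 4 plates, and an exact sign-flip permutation test over 4 plates cannot go below a two-sided p of 0.125. For CDH1, the lowest FN1 ratio was above the highest of TGFBI and THBS1, whereas the ranges for VIM overlap.

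**Figure D5:**
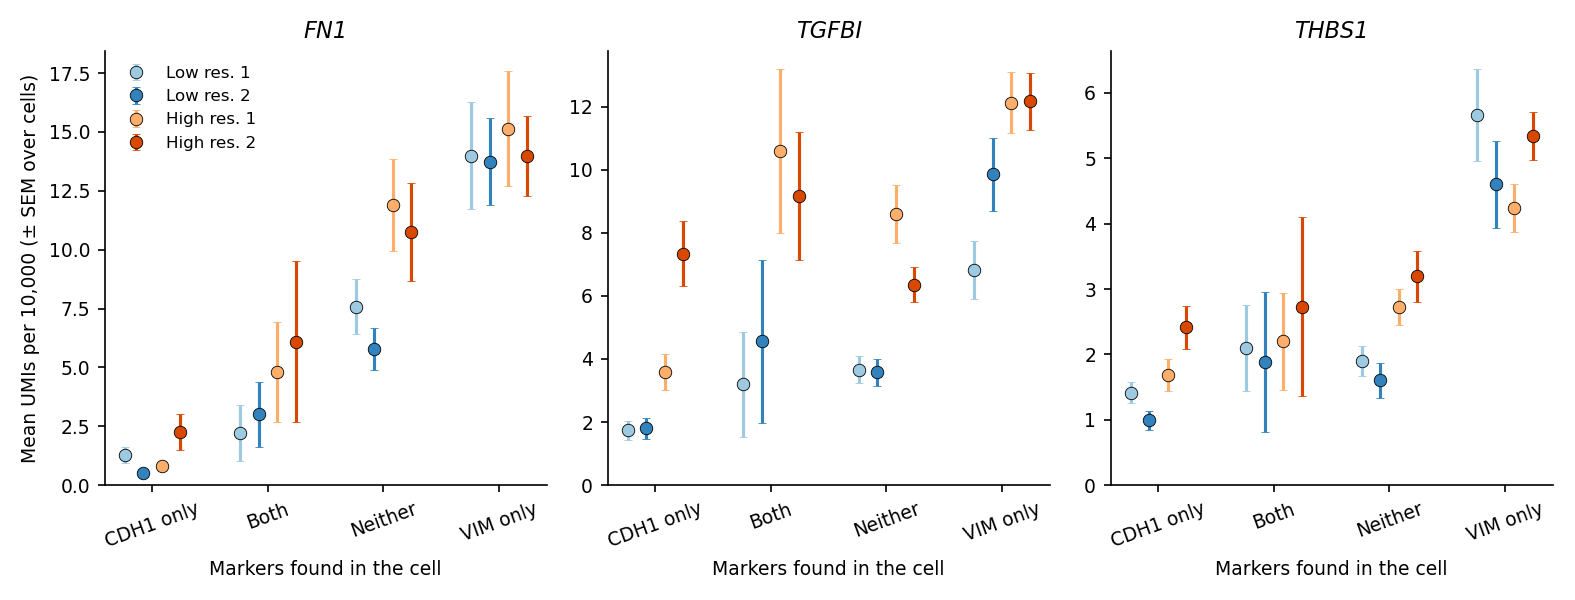
Mean UMIs per 10000 of FN1, TGFBI and THBS1 in cells grouped by the markers found at equal depth (CDH1 only, both, neither, VIM only), 1 point per plate with bars of 1 SEM over cells, which are not replicates. FN1 in cells with VIM only is at 13.7 to 15.1 in all 4 plates, whereas TGFBI there spans 6.82 to 12.2.

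The plates of the 2 experiments were compared on counts summed over the cells of each plate, with edgeR's quasi-likelihood test and Benjamini-Hochberg adjustment over 12437 genes. In such sums, more cells of a kind and more RNA per cell cannot be told apart. TGFBI was higher in the high-resolution plates by a log2 fold change of 1.22 ± 0.12 (SE, adjusted p = 0.000128), FN1 by 0.77 ± 0.11 (adjusted p = 0.00127) and THBS1 by 0.57 ± 0.13 (adjusted p = 0.0176). TNC had -0.07 ± 0.32 (adjusted p = 0.910), and SPARC was removed by the filter on low counts, without which it had -1.35 ± 0.80 (adjusted p = 0.354). So 3 of the 4 members tested rose, where 6.26% of all tested genes rose and 6.18% fell, with a median of -0.02. These 3 also had plates that did not overlap, as 25.6% of all tested genes did in that direction and 32.1% in the other. VIM rose by 0.94 ± 0.13 and CDH1 fell by 0.68 on the log2 scale (SE 0.12), so the plates differed in both markers as well.

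The call for THBS1 depended on single plates: without low-resolution replicate 2 its log2 fold change was 0.40 (adjusted p = 0.0926) and without high-resolution replicate 2 it was 0.46 (adjusted p = 0.0518), both by edgeR. Low-resolution replicate 1 carries another flow cell in its name than the other 3 plates. Among those 3 plates FN1 differed by 0.89 ± 0.13 (adjusted p = 0.00336), TGFBI by 1.11 ± 0.13 (adjusted p = 0.00139) and THBS1 by 0.77 ± 0.14 (adjusted p = 0.00952), in edgeR with the lone low-resolution plate assumed to vary like the others.

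The comparison was repeated within cells of like marker state, on sums of fewer cells, a choice made after the data had been seen. In cells with VIM and without CDH1, edgeR gave log2 fold changes of 0.08 ± 0.14 for FN1 (adjusted p = 0.885), 0.55 ± 0.16 for TGFBI (adjusted p = 0.0981) and -0.10 ± 0.15 for THBS1 (adjusted p = 0.859), so 0 of the 3 were called, where 0.567% of 7055 genes rose and 0.709% fell. Before adjustment TGFBI was the 1 member of the 3 under 0.05, and 807 of the 7055 genes were. In cells with CDH1 and without VIM, TGFBI rose by 1.65 ± 0.21 (adjusted p = 0.000282) and THBS1 by 0.79 ± 0.19 (adjusted p = 0.0375), while FN1 had 0.80 ± 0.34 (adjusted p = 0.264), where 1.12% of 7886 genes rose and 0.824% fell. The difference of the fold changes between the 2 sets of cells did not pass adjustment over 8475 genes for FN1 (-0.71 ± 0.36, adjusted p = 0.765), TGFBI (-1.02 ± 0.24, adjusted p = 0.157) or THBS1 (-0.87 ± 0.18, adjusted p = 0.0941). That test called 1 gene in all, with 571 at an unadjusted p under 0.05.

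The genes nearest to each member across cells were, for FN1, TIMP1 (an inhibitor of matrix metalloproteinases) at a mean rho of 0.755 ± 0.0463, HTRA1 (a secreted serine protease that cleaves fibronectin) at 0.711 ± 0.0599 and ITGB1 (the β1 chain of the fibronectin receptor) at 0.687 ± 0.0747. The lowest was MAL2, of epithelial apical transport, at -0.709 ± 0.0409. For TGFBI they were MT2A (a metallothionein) at 0.682 ± 0.0255, ANXA5 (annexin A5) at 0.675 ± 0.0452 and LGALS1 (galectin 1) at 0.640 ± 0.00890, and the lowest was AZGP1 at -0.677 ± 0.0698.

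For THBS1 the nearest genes were ACTN1 (α-actinin, which crosslinks actin at adhesions) at 0.560 ± 0.0437, ITGB5 (an integrin chain that pairs with αv) at 0.553 ± 0.0626 and AMIGO2 (an adhesion molecule) at 0.552 ± 0.114, with SLPI (a secreted protease inhibitor) lowest at -0.525 ± 0.0762. TNC was nearest to MT2A (0.197 ± 0.0494), AKR1B1 (aldose reductase, 0.186 ± 0.0467) and EMP3 (0.183 ± 0.0428) and lowest with KLK5 (a kallikrein, -0.210 ± 0.0634). For SPARC the highest mean was 0.105 ± 0.0502, with TBC1D1, and the lowest -0.101 ± 0.0552, with LOC105369340, and no likeness can be read from its 22 UMIs.

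Of the tested genes, 150 followed FN1 upwards, 171 TGFBI and 76 THBS1, that is 1.87%, 2.13% and 0.946%, and downwards 1.63%, 1.57% and 0.473% did. Leaving out the members, 79 genes followed both FN1 and TGFBI (53.0% of those of FN1 and 46.7% of those of TGFBI), and 68 followed both TGFBI and THBS1 (40.2% and 90.7%). There were 40 genes that followed all 3, among them VIM, and 18 that fell with all 3. These counts come from the same cells, and no chance level was set for them.

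The receptors of these proteins moved with fibronectin in part. Of 17 receptor genes, 12 were found widely enough to be tested, and 6 followed FN1 upwards and 1 downwards, where 1.87% and 1.63% of all tested genes did. Their median rho was 0.405 against -0.00436 for all tested genes. ITGB1 (0.687) and ITGA5 (0.581 ± 0.0920), which together form the classic fibronectin receptor, and CD44 (0.560 ± 0.0297) were highest. ITGB6, the epithelial partner of αv, ran the other way, with -0.423 ± 0.0630 for FN1 and 0.479 ± 0.0523 for CDH1. Between the experiments, 5 of 13 receptor genes tested by edgeR rose and 2 fell, where 6.26% of all genes tested rose and 6.18% fell. Upwards, ITGA5 (1.07 ± 0.11, adjusted p = 0.000236), ITGB5 (0.83 ± 0.12, adjusted p = 0.00109) and the syndecan SDC1 (0.48 ± 0.12, adjusted p = 0.0230) led. Downwards, ITGB6 (-0.83 ± 0.12, adjusted p = 0.00159) and ITGB8 (-0.56 ± 0.11, adjusted p = 0.00758) did.

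Genes that assemble and crosslink the matrix were divided likewise. Of 14 tested, 8 followed FN1 upwards and 0 downwards (median rho 0.411), where 1.87% and 1.63% of all tested genes did. Among the 8 were FBLN1 (fibulin 1, 0.645 ± 0.0604), TGM2 (transglutaminase 2, 0.627 ± 0.0809) and FBN1 (fibrillin 1, 0.608 ± 0.0687). EFEMP1 (fibulin 3) was the lowest at -0.340 ± 0.0465, with -0.289 in its weakest plate, short of the limit. Between the experiments 6 of 18 rose and 2 fell, where 6.26% of all genes tested by edgeR rose and 6.18% fell. TGM2 by 1.29 ± 0.13 (adjusted p = 0.000141), NID2 (nidogen 2) by 1.18 ± 0.33 (adjusted p = 0.0342) and FBN1 by 0.99 ± 0.15 (adjusted p = 0.00139) rose most. LOXL2, a lysyl oxidase, was lower at -0.59 ± 0.12 (adjusted p = 0.00854), as was EFEMP1 at -0.46 ± 0.11 (adjusted p = 0.0234). FBLN1, the closest of them to FN1 across cells, had 0.10 ± 0.10 (adjusted p = 0.567). The median over the 18 was 0.27. NID2 was sparse, in 3.78%, 7.75%, 14.4% and 14.3% of cells by plate, and was not tested for correlation.

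Among the other matricellular genes, 17 of 23 were listed and only 4 were found widely enough for correlation. SPOCK1 (testican 1, a relative of SPARC) had 0.625 ± 0.0592 with FN1 and FSTL1 (follistatin-like 1) 0.447 ± 0.0506. Both followed FN1 upwards, where 1.87% of all tested genes did. CTGF and CYR61, of the CCN family, had means of 0.385 ± 0.218 and 0.265 ± 0.206, with single plates as low as 0.126 and 0.0583. In edgeR 5 of 11 rose and 1 fell, with a median of 0.59, where 6.26% of all tested genes rose and 6.18% fell. POSTN (periostin, the closest relative of TGFBI) by 1.81 ± 0.18 (adjusted p = 0.000141), CYR61 by 1.20 ± 0.18 (adjusted p = 0.00131) and CTGF by 1.11 ± 0.16 (adjusted p = 0.00117) rose most. WISP2 fell by 1.25 (SE 0.24, adjusted p = 0.00670). POSTN was found in 12.7% and 13.3% of low-resolution cells and in 48.1% and 40.3% of high-resolution cells.

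Of 17 genes of the TGF-beta pathway tested, 2 followed FN1 upwards and 0 downwards, where 1.87% and 1.63% of all tested genes did. Their median rho was 0.151, against -0.00436 for all tested genes. LTBP2 (a latent TGF-beta binding protein) followed FN1 at 0.428 ± 0.0537. LTBP1 had 0.336 ± 0.0978, with 0.217 in its lowest plate, and BAMBI, a decoy receptor, was lowest at 0.000407 ± 0.0459. Between the experiments 4 of 18 rose and 1 fell, where 6.26% of all genes tested by edgeR rose and 6.18% fell. The median of the 18 was 0.03, against -0.02 for all. LTBP2 rose by 1.01 ± 0.14 (adjusted p = 0.000935), ENG (endoglin, a co-receptor) by 0.67 ± 0.18 (adjusted p = 0.0300) and LTBP1 by 0.66 ± 0.17 (adjusted p = 0.0256), while TGFBR3 fell by 0.62 (SE 0.13, adjusted p = 0.0111).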

How the data were processed

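Each of the 4 plates was deposited by the authors as a table of expected counts per gene and well: distinct UMIs, raised for those that random sampling of the identifiers would have drawn repeatedly, with spike-ins and without scaling. Per the submitters' processing notes, STAR 2.7.3a, Seurat 4 and hg38 were used. The counting tool is not given in the sources used here. No column was left unmapped (0).

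The study's filter was kept (2000 to 9000 features, mitochondrial counts below 40%), with spike-ins counted in for both limits. It left 562 low- and 584 high-resolution cells, fewer than the paper states in each experiment, so the set of cells differs from that of the paper. After the filter spike-ins were left out, and counts were scaled to 10000 per cell. The correction was undone to whole UMIs before cells were thinned to 10000 UMIs (seed 1). Doublets were not called beyond the limit of 9000 features. All 384 well names recur in each plate by design. Where a cell is placed within its plate's 5 score groups, the score uses z-scores within the plate. The experiments were compared on summed, rounded counts with edgeR 4.0.16 in R 4.3.3 (filterByExpr, TMM, quasi-likelihood test, threshold 0.05). The SE is the log2 fold change divided by the root of F. Python 3.11.15, numpy 2.4.6 and scipy 1.17.1 were used otherwise. DESeq2 1.42.0 and other alternatives are in the closing section. An exact permutation of 2 against 2 plates cannot go below a two-sided p of 0.333. The paper calls the plates of an experiment biological replicates. The edgeR p-values set a difference against the spread between plates, which with 2 plates per experiment is estimated in part from other genes. The correlation and edgeR steps were tested on simulated data.

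The members and gene lists were chosen with earlier results of these data known. Genes named are the members, CDH1 and VIM, the 3 highest and 1 lowest by rho with each member, the 3 highest and 1 lowest with FN1 in each list, and list genes past the edgeR threshold (at most 3 each way). A further list gene met it and is not reported here. A gene's share of cells has an exact 95% binomial interval.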

Additional observations from a re-analysis of the deposited data

How the results depend on the processing

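The 3 members found in at least 20% of cells stayed 3 under every alternative run for that count. With a limit on rho of 0.4, 0 members followed VIM and 1 followed CDH1, and at equal depth 1 followed CDH1. THBS1 no longer followed VIM (2 members left) with the cell cycle scores partialled out or mitochondrial counts left out. The mean rho over the 10 pairs was 0.132 at equal depth and 0.0258 with the EMT score partialled out, and 0.162 to 0.185 with each plate left out. The number of genes called between the experiments, 1547, was 999 at equal depth, 90 in cells with VIM and without CDH1, 153 in cells with CDH1 and without VIM (both chosen after seeing the data), 982 to 1172 with each plate left out (982 without low-resolution replicate 1 and 987 without high-resolution replicate 2) and 1070 with DESeq2. The same-numbered plates share only a number (r = -0.0201 between their deviations over 11656 genes), and a replicate block gave 2023 calls. It changed no call of a member. With each plate left out TNC ran from -0.44 to 0.44. Its direction reversed to 0.29 at equal depth, 0.44 without low-resolution replicate 1 and 0.18 without high-resolution replicate 1, and that of THBS1 to -0.10 in cells with VIM and without CDH1; the cause was not tested. Plates left out leave an arm of 1, which was assumed to vary like the other. Depth limits what can be said of TNC and SPARC.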
